A study of Mus musculus with 4 samples.

Results

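The 10 genes described here handle iron, haem and other metals: Slc39a14, Tfrc, Trf, Fth1, Ftl1, Slc40a1, Cp, Hmox1, Mt1 and Mt2. They were found by symbol among the 46983 genes of the count tables, and each symbol matched 1 gene. The members were chosen with earlier results of the same libraries in view, picked from a ranking of fold changes in which Slc39a14 stood among the genes highest in oligodendrocyte-like nuclei at day 1. Its value there is therefore given as a description and supports nothing further.

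Iron enters cells bound to transferrin through the transferrin receptor, or unbound through metal transporters, is stored in ferritin, and leaves through ferroportin, whose exported iron is oxidised by ceruloplasmin. Haem oxygenase 1 opens the haem ring and frees its iron, and metallothioneins are small proteins that bind zinc and copper. In the brain, oligodendrocytes are known for their large iron stores, microglia and border macrophages for taking up iron from dying cells and blood, and astrocytes for metallothioneins.

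Nuclei came from the forebrain hemispheres of 3-month-old male C57Black/6 mice, either labelled sham control or taken on day 1, day 3 or day 7 of a permanent stroke model (MCAO), in which the middle cerebral artery was coagulated and transected. For each group 3 hemispheres were pooled into 1 droplet library, so there is no replicate, and no p-value is given. The model leaves a small lesion in parietal cortex, so a hemisphere holds lesion and tissue away from it together. The labels also name intact cortex as control tissue, whereas the design names hemispheres for all groups. In sham, 353 nuclei (16.7%) fell in the class named from striatal projection neuron markers, against 12.3% to 13.1% in the other libraries, so sham holds cells from outside the cortex. The study's number of nuclei per time point is nearer to these tables with day 3 and day 7 exchanged. No other measure of the time course was compared, and this alone does not show that the labels are wrong. Groups here are those of the labels throughout, so every day 3 and day 7 value below rests on them.

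The 4 libraries held 23285489 to 42963698 unique molecular identifiers (UMIs, 1 per captured RNA molecule). After nuclei were called and doublets removed, 2114 nuclei remained for sham, 1018 for day 1, 3055 for day 3 and 1569 for day 7, with medians of 6340, 10933, 5370 and 7020 UMIs, so the day 1 library had the fewest and the deepest nuclei. Pairs of libraries shared 0 to 3 nucleus barcodes. Clusters were named from marker genes, with the members left out of the clustering. Microglia-like nuclei numbered 91, 46, 191 and 95 in sham, day 1, day 3 and day 7, astrocyte-like nuclei 147, 57, 221 and 70, oligodendrocyte-like nuclei 322, 161, 432 and 252, and neuronal nuclei 1391, 668, 1876 and 1028. All 14 microglia markers were present in the microglia-like nuclei of every library, as were all 14 astrocyte and all 14 oligodendrocyte markers in their classes. A level is the sum of a gene's UMIs over the nuclei of a class in a library, divided by all UMIs of that class and given as a counts-per-million value (CPM). Ratios are to sham, with exact 95% intervals that cover counting error only and say nothing of the spread between mice. Levels are not compared between genes. "Free RNA" is the pooled content of barcodes with 1 to 1000 UMIs, which are droplets without a called nucleus.

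Across the 4 main classes, the differences from sham were most frequent at day 3 and among microglia-like nuclei. There, Hmox1 stood at 178 CPM against 7.45 in sham, and Fth1, Ftl1, Mt1 and Mt2 were also higher by 2-fold or more. Border macrophage markers were found in 40 of the 191 microglia-like nuclei at day 3 and 7 of the 91 in sham, and without those nuclei Fth1 and Mt1 fell short of 2-fold. Slc39a14 was higher by 2-fold or more at day 1 in all 3 glial classes and within 1.04-fold of sham in neuronal nuclei. Slc40a1 was at 7.16 CPM in microglia-like nuclei at day 1 and between 76.2 and 98.8 CPM in the other libraries.

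Several members carry iron-responsive elements, short RNA hairpins that iron regulatory proteins bind when iron is low. The transcripts of GENCODE vM21 (GRCm38) were searched for a C, 5 bases, the loop CAGTGN with a last base other than G, and 5 bases that pair with the first 5. Such a hairpin lay in an untranslated region of 123 of 21877 protein-coding genes (0.562%), and 4 of the members were among them. The elements are printed because they tie the storage, export and uptake genes of the set together, with 29 bases each, the loop in capitals and T for U.
Fth1, 5' UTR, chr19:9982732-9982760, plus strand: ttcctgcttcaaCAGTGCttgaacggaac
Ftl1, 5' UTR, chr7:45459779-45459807, minus strand: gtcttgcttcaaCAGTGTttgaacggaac
Slc40a1, 5' UTR, chr1:45925465-45925493, minus strand: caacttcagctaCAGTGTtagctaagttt
Tfrc, 3' UTR, chr16:32631219-32631247, plus strand: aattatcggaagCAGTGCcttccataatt
Tfrc, 3' UTR, chr16:32631598-32631626, plus strand: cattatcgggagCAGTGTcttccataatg
Tfrc, 3' UTR, chr16:32631663-32631691, plus strand: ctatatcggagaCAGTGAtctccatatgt
Tfrc, 3' UTR, chr16:32631710-32631738, plus strand: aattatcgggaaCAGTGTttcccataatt
The single 5' elements of Fth1, Ftl1 and Slc40a1 lie before the coding sequence, where binding is known to block translation, and the 4 elements of Tfrc lie behind it, where binding is known to protect the RNA. Counts of RNA do not measure translation.

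Among the iron uptake genes, Slc39a14 (chr14:70303469-70351425, minus strand) encodes ZIP14, a transporter of zinc, manganese and iron that is not bound to transferrin. In oligodendrocyte-like nuclei its level was 13.8 CPM in sham (11 UMIs), 85.8 CPM at day 1 (51 UMIs), 48.6 CPM at day 3 (48 UMIs) and 21.7 CPM at day 7 (15 UMIs). Day 1 was highest and the levels of day 3 and day 7 lay between day 1 and sham. The ratio to sham was 6.23 (3.21 to 13.3) at day 1, 3.53 (1.81 to 7.54) at day 3 and 1.58 (0.678 to 3.8) at day 7. The day 7 interval includes no difference.

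The difference in oligodendrocyte-like nuclei was spread over many nuclei. At least 1 UMI of Slc39a14 was found in 10 of 322 nuclei in sham (3.11%), 32 of 161 at day 1 (19.9%), 34 of 432 at day 3 (7.87%) and 12 of 252 at day 7 (4.76%), at median depths of 2025, 3094, 1859.5 and 2348 UMIs. With every nucleus thinned to 1000 UMIs the shares were 1.24%, 5.59%, 4.86% and 1.98%, in the same order. At equal depth the shares of day 1 and day 3 thus lay close together. No nucleus held more than 6 UMIs of it. Endothelial cell-like nuclei, in which Slc39a14 was lowest at day 1 and day 3, held it in 0 of 6 and 5 of 74 nuclei, at median depths of 4276 and 3588 UMIs. In cluster 1, the largest oligodendrocyte-like cluster, the level was 13.9, 115, 46.2 and 27.9 CPM in sham, day 1, day 3 and day 7. Cluster 8 gave 17.0, 42.4, 59.9 and 14.2 CPM in the same libraries, with 9 UMIs at day 1, so its highest level was at day 3. Both clusters were above sham at day 1 and day 3. In cluster 8, however, the intervals of day 1 (19.4 to 80.4 CPM) and day 3 (35.5 to 94.6 CPM) overlap that of sham (5.53 to 39.7 CPM). Markers of other classes in the same nuclei also differed between libraries: the 14 microglia markers summed to 148, 262, 301 and 238 CPM and the 14 astrocyte markers to 568, 525, 822 and 655 CPM in sham, day 1, day 3 and day 7. Their part in the Slc39a14 values was not tested. Free RNA alone, at the median UMI count of empty droplets per nucleus, would give 3.7 to 5.08 CPM of Slc39a14 in these nuclei.

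**Figure D1:**
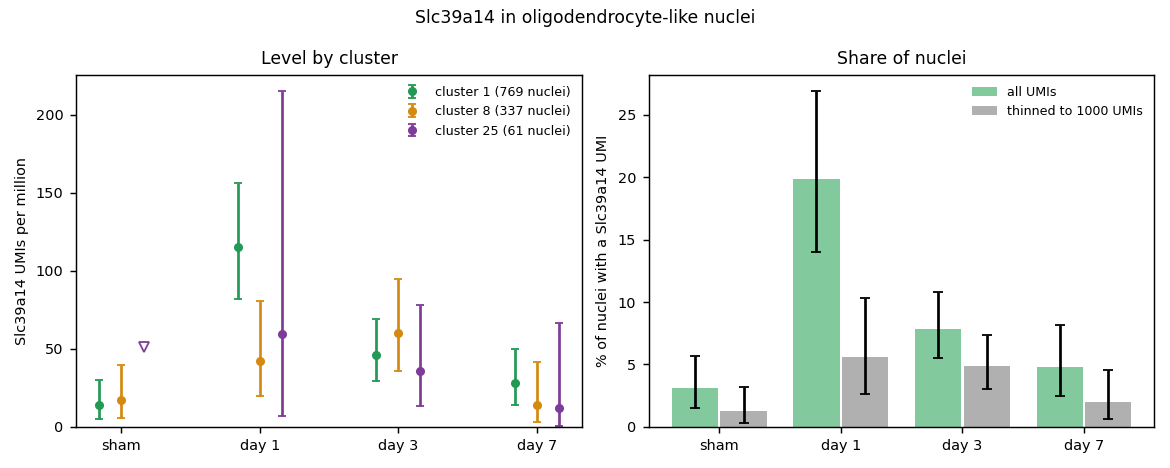
Left, level of Slc39a14 in CPM in each oligodendrocyte-like cluster (points, with exact 95% Poisson bars, open triangles for the upper limit of a count of 0) by library. Right, percent of oligodendrocyte-like nuclei with a Slc39a14 UMI, with all UMIs (green) and thinned to 1000 UMIs (grey), with exact 95% binomial bars. Day 1 is highest in cluster 1 (115 CPM) and, with all UMIs, in the share of nuclei (19.9%). On thinning, day 1 and day 3 lie close together in that share.

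Astrocyte-like nuclei held Slc39a14 at 38.5 CPM in sham, 93.3 CPM at day 1, 80.8 CPM at day 3 and 79.1 CPM at day 7. All 3 later libraries were above sham, with ratios of 2.42 (1.42 to 4.18), 2.1 (1.32 to 3.43) and 2.05 (1.2 to 3.55). Microglia-like nuclei held 33.5, 85.9, 57.2 and 36.2 CPM in sham, day 1, day 3 and day 7, from 9 to 27 UMIs. Only day 1 passed 2-fold there, at 2.56 (1.15 to 6.27). Neuronal nuclei stayed close to sham at 33.0, 34.4, 33.7 and 27.1 CPM in the 4 libraries, from 307 to 576 UMIs, and the ratio at day 1 was 1.04 (0.906 to 1.19). In neuronal nuclei the gene was found in 23.5% to 36.4% of nuclei, at median depths of 7830 to 14215 UMIs. The class with the most counts thus showed no such difference.

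Outside the main classes, oligodendrocyte precursor-like nuclei had 67.6, 88.1, 46.6 and 42.5 CPM of Slc39a14 in sham, day 1, day 3 and day 7. In sham this class ranked first, but neighbouring classes in the order lay within counting error of each other. At day 1 and day 3 fibroblast-like nuclei ranked first, with 484 and 175 CPM against 12.2 CPM in sham and 80.8 CPM at day 7. These values rest on 21 UMIs at day 1, all of them in 2 of 11 nuclei, 32 UMIs from 49 nuclei at day 3 and 1 UMI in sham.

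Tfrc (chr16:32608920-32632794, plus strand) encodes the transferrin receptor, the main entry of transferrin-bound iron. It was highest in endothelial cell-like nuclei of every library, at 343 CPM in sham, 184 CPM at day 1 (6 UMIs from 6 nuclei), 222 CPM at day 3 and 262 CPM at day 7. In sham this was 5.64 (2.25 to 18.1) times the level of fibroblast-like nuclei, the next in order, and at day 3 it was 5.12 (3.12 to 8.86) times that of the next class. At day 1 the ratio to the next class was 2.78 (0.898 to 7.4), within counting error. The endothelial cell-like cluster also holds mural cell markers, which summed to 2577 to 4794 CPM. In the main classes, neuronal nuclei had 50.6, 47.6, 39.0 and 42.0 CPM and stayed within 2-fold of sham. Oligodendrocyte-like nuclei had 28.8 CPM in sham (23 UMIs), 13.5 CPM at day 1 (8 UMIs), 27.4 CPM at day 3 (27 UMIs) and 5.8 CPM at day 7 (4 UMIs). Day 1 and day 7 passed the 2-fold line downward, with ratios of 0.467 (0.181 to 1.08) and 0.201 (0.0506 to 0.589), and the day 1 interval includes no difference. The free RNA of each library would by itself give 7.49, 7.37, 8.65 and 5.67 CPM in these nuclei, so at day 7 the level lay at that background.

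Trf (chr9:103204001-103230444, minus strand) encodes transferrin, the carrier of iron in plasma and a known product of oligodendrocytes. The tables held 1 UMI of it over all 7756 nuclei, in 1 of 432 oligodendrocyte-like nuclei at day 3, and 0 in free RNA of all 4 libraries. In the 322 oligodendrocyte-like nuclei of sham the count of 0 allows a level of up to 4.62 CPM. A second gene model on the same strand, Gm20425, covers 99.5% of Trf and held 1 UMI over all nuclei. The authors' counting removed UMIs whose reads fell on more than 1 gene, and the part of this overlap in the missing counts was not tested. Trf is therefore not described further.

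The storage genes encode the 2 chains of ferritin, the hollow shell that holds iron: Fth1 (chr19:9980598-9985098, plus strand) the heavy chain and Ftl1 (chr7:45457944-45459884, minus strand) the light chain. Microglia-like nuclei had 309 CPM of Fth1 in sham, 451 CPM at day 1, 756 CPM at day 3 and 309.6 CPM at day 7. Day 3 was highest, at 2.44 (1.92 to 3.14) times sham, and day 7 was back at the sham level, at 1.0 (0.737 to 1.36). Fth1 was found in 42.9%, 71.7%, 62.3% and 48.4% of microglia-like nuclei, and in 20.9%, 28.3%, 40.3% and 31.6% once nuclei were thinned. Thinned neuronal nuclei held it in 11.2%, 12.1%, 14.3% and 7.78%. Free RNA alone would give 128, 121, 251 and 125 CPM in microglia-like nuclei, also highest at day 3. A smaller microglia-like cluster of 30 nuclei, in which oligodendrocyte markers came second, had 1019.8 CPM in sham and 260.4 CPM at day 1. Without it the log2 ratio of Fth1 was 1.16 at day 1 and 1.77 at day 3, against 0.55 and 1.29 with it. Leaving out the microglia-like nuclei with a border macrophage marker instead, 40 of the 191 at day 3, gave -0.35 at day 1 and 0.93 at day 3, which turns the day 1 direction and ends the 2-fold call of day 3. So the size of the Fth1 difference depends on which nuclei count as microglia-like.

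Astrocyte-like nuclei had 533, 345, 1043 and 897 CPM of Fth1 in sham, day 1, day 3 and day 7. The order differs from that of microglia, with day 1 lowest at 0.647 (0.526 to 0.791) times sham and day 3 at 1.96 (1.73 to 2.22), below the 2-fold line. Oligodendrocyte-like nuclei had 819, 794, 874 and 564 CPM, with ratios from 0.689 (0.606 to 0.782) at day 7 to 1.07 (0.963 to 1.18) at day 3. Neuronal nuclei had the lowest levels among the main classes in every library, at 102, 110, 141 and 89.0 CPM, of which free RNA alone would give 37.8, 44.6, 68.2 and 36.3 CPM. Endothelial cell-like nuclei had 1016, 1384, 1936 and 1288 CPM. The cluster named from choroid plexus markers had 1638, 2066, 5090 and 3534 CPM, but its own 10 markers summed to 25297, 1942, 6554 and 26810 CPM, so its nuclei were not alike across libraries and no ratio is given for it.

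Ftl1 was far sparser in the tables, with 455 UMIs over all nuclei. In microglia-like nuclei it had 22.3 CPM in sham (6 UMIs), 28.6 CPM at day 1 (8 UMIs), 78.3 CPM at day 3 (37 UMIs) and 0 at day 7, where 0 of 95 nuclei allows a share with a UMI of up to 3.81% at a median depth of 2048 UMIs, which does not limit the share expressing so sparse a gene. The day 3 level was 3.5 (1.47 to 10.2) times sham. Without the nuclei that held a border macrophage marker its log2 ratio was 1.03, just past the 2-fold line. As with Fth1, the ferritin gene was highest in microglia-like nuclei at day 3. In neuronal nuclei Ftl1 had 5.61, 3.17, 3.33 and 0.707 CPM in sham, day 1, day 3 and day 7, with 78 UMIs in sham and 8 at day 7. The day 7 ratio was 0.126 (0.0525 to 0.261), and free RNA of the same libraries gave 0.143 (0.112 to 0.179), from 54.9 CPM in sham to 7.83 CPM at day 7. Subtracting ambient RNA in proportion to depth left 0 Ftl1 UMIs in the neuronal nuclei of sham and day 7. The neuronal ratio therefore cannot be told apart from that of free RNA. In free RNA Fth1 did not share the low Ftl1 count of day 7, at 1231 and 1241 CPM in sham and day 7.

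**Figure D2:**
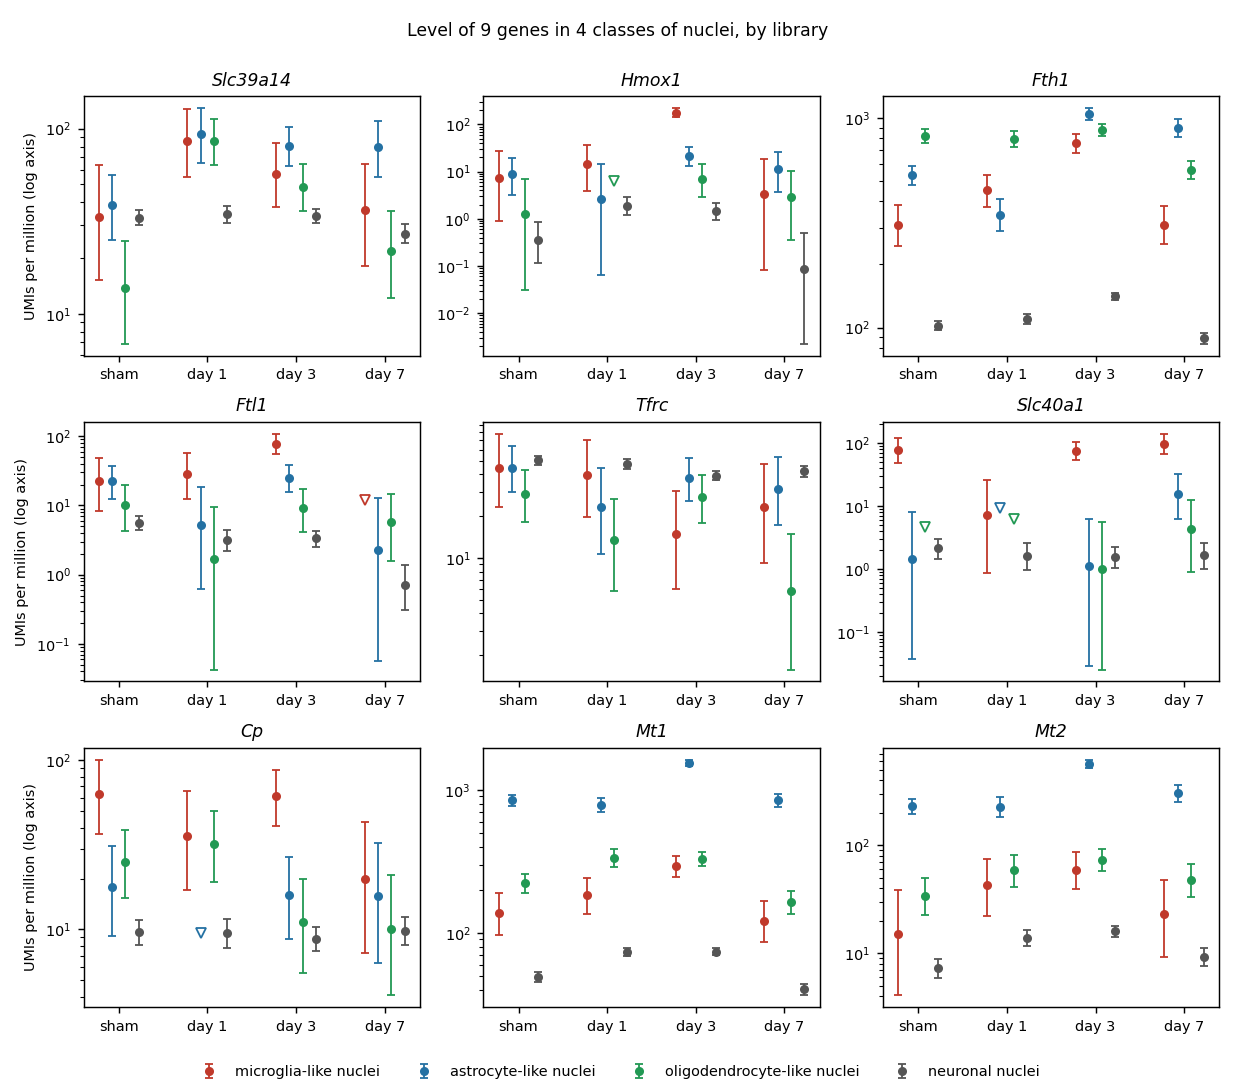
Level in CPM (log axis) of 9 members, Trf left out, by library in microglia-like (red), astrocyte-like (blue), oligodendrocyte-like (green) and neuronal (grey) nuclei. Points are sums over the nuclei of a class with exact 95% Poisson bars, and open triangles give the upper limit where the count is 0. Hmox1 in microglia-like nuclei stands out at day 3 (178) and Slc40a1 in microglia-like nuclei is low at day 1 (7.16).

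Slc40a1 (chr1:45908068-45926523, minus strand) encodes ferroportin, the known exporter of iron from cells. Its level was highest in endothelial cell-like nuclei, with 250.4, 215, 174 and 324 CPM in sham, day 1, day 3 and day 7, followed by microglia-like nuclei. The endothelial level was 3.2 (1.81 to 5.79) times the microglial one in sham and 2.28 (1.52 to 3.48) times at day 3. Microglia-like nuclei had 78.2 CPM in sham (21 UMIs), 7.16 CPM at day 1 (2 UMIs), 76.2 CPM at day 3 (36 UMIs) and 98.8 CPM at day 7 (30 UMIs). Day 1 stood apart below the other 3 libraries, with a ratio of 0.0916 (0.0104 to 0.375), and day 3 and day 7 lay within counting error of sham at 0.974 (0.554 to 1.76) and 1.26 (0.7 to 2.32).

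By nuclei, Slc40a1 was found in 18 of 91 microglia-like nuclei in sham (19.8%), 2 of 46 at day 1 (4.35%), 29 of 191 at day 3 (15.2%) and 20 of 95 at day 7 (21.1%). The day 1 nuclei were the deepest of the class, with a median of 3848 UMIs against 1750 to 2048 in the others. Thinned to 1000 UMIs, the shares were 8.79%, 0%, 8.9% and 8.42%. Oligodendrocyte-like nuclei, which served as a class with little of the gene, held it in 0 of 322, 0 of 161, 1 of 432 and 3 of 252 nuclei. Free RNA had 7.2, 3.17, 6.46 and 5.65 CPM, and its day 1 ratio was 0.44 (0.281 to 0.675), the same direction. In barcodes of 1 to 100 UMIs alone the ratio was 0.673, from 11 UMIs in sham and 10 at day 1, which does not pass 2-fold. The 46 microglia-like nuclei of day 1 held all 14 microglia markers at 6227 CPM, against 8116 to 9722 CPM in the other libraries, and 4 of 8 border macrophage markers at 619 CPM, against 85.7 to 303 CPM. In sham 39.3% of the nuclear Slc40a1 UMIs lay in endothelial cell-like nuclei and 23.6% in microglia-like nuclei. Endothelial cell-like nuclei made up 1.8% of nuclei in sham and 0.589% at day 1, and microglia-like nuclei 4.3% and 4.52%. Fewer cells of a type and less Slc40a1 RNA per cell cannot be told apart in free RNA. Without the microglia-like nuclei that held a border macrophage marker, Slc40a1 was still past the 2-fold line downward at day 1, with a log2 ratio of -2.56 against -2.86 with them, the day 1 sum of under 3 UMIs being set to 3 in both.

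Cp (chr3:19957054-20009145, plus strand) encodes ceruloplasmin, a copper oxidase that readies exported iron for transferrin. On the opposite strand Hps3 covers 25.3% of it, and since the strand used in counting is not given in the sources used here, reads of the overlap may belong to either gene. Fibroblast-like nuclei had the highest level in every library, at 341, 1612, 542 and 420.2 CPM in sham, day 1, day 3 and day 7, from 26 to 99 UMIs. In sham that was 2.96 (1.7 to 5.15) times the level of oligodendrocyte precursor-like nuclei, the next in order, which had 115, 57.3, 83.3 and 137 CPM. Endothelial cell-like nuclei had 100.2, 123, 231 and 177 CPM. The 4 main classes held less of it than these 3 classes in every library. Neuronal nuclei varied least, at 9.65, 9.52, 8.83 and 9.81 CPM.

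Among the glia, Cp in oligodendrocyte-like nuclei was at 25.0, 32.0, 11.1 and 10.1 CPM in sham, day 1, day 3 and day 7 (7 to 20 UMIs). Day 3 and day 7 passed the 2-fold line downward, at 0.445 (0.193 to 0.975) and 0.405 (0.145 to 0.998). Microglia-like nuclei had 63.3, 35.8, 61.4 and 19.8 CPM, with a day 7 ratio of 0.312 (0.101 to 0.83) from 6 UMIs. The 3 values are lower than sham but their intervals come close to 1.

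Hmox1 (chr8:75093621-75100589, plus strand) encodes haem oxygenase 1, an enzyme induced by haem and by oxidative stress. In microglia-like nuclei it had 7.45 CPM in sham (2 UMIs), 14.3 CPM at day 1 (4 UMIs), 178 CPM at day 3 (84 UMIs) and 3.29 CPM at day 7 (1 UMI). Day 3 stood alone, at 23.9 (6.4 to 200.3) times sham, and at that time point microglia-like nuclei held 56.8% of all nuclear Hmox1 UMIs of the library. The next class in order at day 3, astrocyte-like nuclei, was 8.22-fold lower (4.95 to 14.3). In sham and at day 1 the cluster named from choroid plexus markers ranked first instead, with 41.4 CPM (9 UMIs) and 50.7 CPM (13 UMIs).

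The microglial Hmox1 signal at day 3 came from a minority of nuclei. It was found in 21 of 191 microglia-like nuclei (7.33% once thinned), against 7 of 432 oligodendrocyte-like nuclei (1.62%, 0.694% once thinned), at median depths of 1750 and 1859.5 UMIs. One microglia-like nucleus held 39 of the 84 UMIs (46.4%). Without the nucleus with most UMIs in each library the log2 ratio was 3.09, against 3.99 with it, the sham sum of under 3 UMIs being set to 3 in both. Border macrophage markers were present in 40 of the 191 nuclei, among them 12 of the 21 with Hmox1, which together held 61 of the 84 UMIs. Leaving out all nuclei with such a marker, in every library, the log2 ratio was 2.39. At day 3, 7 of the 8 border macrophage markers had UMIs, summing to 303 CPM against 85.7 CPM in sham, and Lyve1 was at 0 in every library. Hmox1 was thus higher than sham both with and without border-marked nuclei. These nuclei were not split by markers of neutrophils or monocytes, and the part of such cells in the Hmox1 values was not tested.

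In the other main classes Hmox1 counts were low and unstable. Astrocyte-like nuclei had 8.88, 2.59, 21.6 and 11.3 CPM in sham, day 1, day 3 and day 7, with a day 3 ratio of 2.44 (0.935 to 7.45) from 19 and 6 UMIs. Thinning left 3 UMIs at day 3 and 1 in sham, too few for a ratio. Neuronal nuclei had 0.36, 1.9, 1.46 and 0.0884 CPM (5, 21, 25 and 1 UMIs), with ratios of 5.29 (1.94 to 18.0) at day 1 and 4.06 (1.53 to 13.6) at day 3. Of the 1.46 CPM at day 3, free RNA alone would give 1.12 CPM, and subtracting ambient RNA in proportion to depth left 0 UMIs in both libraries. Thinning left 3 UMIs at day 3, 1 at day 1 and 0 in sham, so the day 3 ratio was not measurable under either alternative, nor the day 1 ratio on thinning. Free RNA itself had 8.11, 13.1, 27.4 and 5.65 CPM, which at day 3 was 3.38 (2.7 to 4.29) times sham. So Hmox1 was highest at day 3 in both free RNA and microglia-like nuclei.

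Of the 6 erythroid markers, the 4 haemoglobin genes were also higher after injury in the free RNA in which Hmox1 was measured. Hbb-bs had 4.65, 24.4, 26.6 and 12.5 CPM in sham, day 1, day 3 and day 7, and Hba-a1 had 0.911, 7.05, 8.63 and 4.1 CPM. Hba-a2 and Hbb-bt were likewise lowest in sham and Slc4a1 was at 0 in all 4 libraries. Alas2, the erythroid enzyme of haem synthesis, stayed near sham at 3.83, 4.39, 3.77 and 4.01 CPM in sham, day 1, day 3 and day 7. Unlike the haemoglobin genes it was higher in nuclei, at 15.9, 21, 15 and 14.1 CPM, so its counts need not come from erythroid cells. The part of erythroid RNA in the values of the members was not tested.

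Mt1 (chr8:94179082-94180327, plus strand) and Mt2 (chr8:94172664-94173568, plus strand) encode the widely expressed metallothioneins and lie next to each other. Their transcription is known to respond to zinc through metal response elements, the cores of which were searched as TGCGCNC and TGCACNC on both strands of the RefSeq promoter windows (GRCm38.p6, 300 bases around each start). Either core was found in 25.7% of 32851 windows. The Mt2 window held 4 cores, and 0.517% of windows held as many. The Mt1 window held 3, as 1.97% of windows did. Both are printed up to the start because the 2 genes had the most alike levels of the set, with cores in capitals as read on the plus strand.
Mt2, chr8:94172368-94172617, plus strand: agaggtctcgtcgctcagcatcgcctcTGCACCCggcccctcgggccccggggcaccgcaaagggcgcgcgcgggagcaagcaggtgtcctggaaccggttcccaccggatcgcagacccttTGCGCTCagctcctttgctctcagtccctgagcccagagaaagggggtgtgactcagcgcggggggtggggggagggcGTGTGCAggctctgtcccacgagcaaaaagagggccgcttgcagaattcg
Mt1, chr8:94178839-94179081, plus strand: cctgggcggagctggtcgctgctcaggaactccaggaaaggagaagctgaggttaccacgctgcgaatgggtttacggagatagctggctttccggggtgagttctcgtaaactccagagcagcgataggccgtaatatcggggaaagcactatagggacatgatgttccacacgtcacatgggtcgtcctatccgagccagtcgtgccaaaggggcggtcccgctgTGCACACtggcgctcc
The remaining cores of both windows lie behind the printed bases. A match is a description of the letters, and binding was not measured. Of the other members in the promoter table, 1 window of Tfrc held 2 cores and those of Fth1, Ftl1 and Cp held 0.

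Astrocyte-like nuclei were the main glial class for both metallothioneins. Mt1 had 845 CPM in sham, 786 CPM at day 1, 1545 CPM at day 3 and 843 CPM at day 7, and Mt2 had 231, 226, 569 and 303 CPM. Day 3 was highest for both, at 1.83 (1.66 to 2.02) times sham for Mt1 and 2.47 (2.06 to 2.97) times for Mt2, and the day 1 levels lay within counting error of sham. In the day 3 library 1 astrocyte-like nucleus held 205 Mt1 UMIs. Ependymal cell-like nuclei had 931, 2704, 951 and 691 CPM of Mt1, the highest value from 7 nuclei at day 1.

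The other main classes had lower levels of both genes. Microglia-like nuclei had 138, 183, 294 and 122 CPM of Mt1 in sham, day 1, day 3 and day 7, with 2.13 (1.48 to 3.16) times sham at day 3. Free RNA alone would give 102, 130.3, 180.1 and 90.4 CPM of Mt1 in these nuclei, also highest at day 3. Mt2 in the same nuclei had 14.9, 43.0, 59.3 and 23.1 CPM, with 3.98 (1.39 to 15.6) times sham at day 3 from 28 and 4 UMIs, where free RNA alone would give 16.8, 22.7 and 39.3 CPM in sham, day 1 and day 3. Oligodendrocyte-like nuclei had 222, 336, 330.4 and 164 CPM of Mt1, and 33.8, 58.9, 73.0 and 47.8 CPM of Mt2, whose day 3 ratio was 2.16 (1.37 to 3.5), where free RNA alone would give 19.9, 37.4, 42.5 and 24.5 CPM of Mt2. Neuronal nuclei had 49.1, 73.7, 73.7 and 40.2 CPM of Mt1 and 7.2, 13.8, 16.0 and 9.28 CPM of Mt2, whose day 3 ratio was 2.23 (1.76 to 2.83). The neuronal Mt1 levels compare with 30.0, 47.9, 48.9 and 26.2 CPM that free RNA alone would give. Subtracting ambient RNA in proportion to depth left 0 UMIs of Mt1, Mt2, Fth1 and Ftl1 in the neuronal nuclei of every library, so no neuronal ratio of these genes was measurable after it. In all 4 main classes day 3 was the highest library for Mt2.

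**Figure D3:**
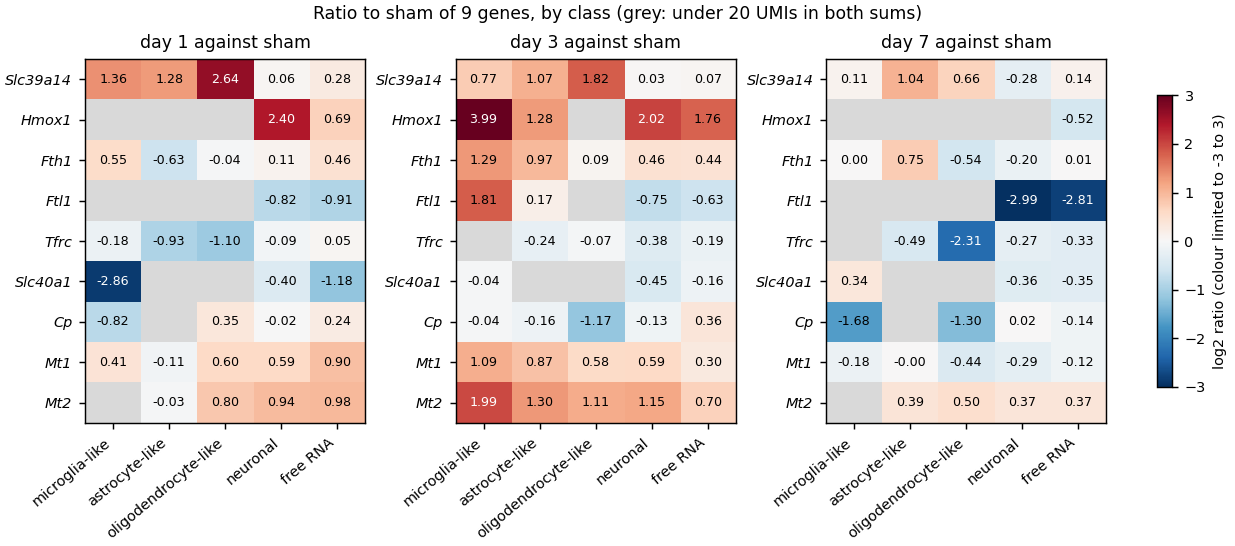
Log2 ratio to sham of 9 members, Trf left out, in the 4 main classes and in free RNA at day 1, day 3 and day 7. Red is higher and blue lower than sham, the colour is limited to 3 in either direction, and grey marks pairs with under 20 UMIs in both sums together. Microglia-like nuclei at day 3 hold the largest value, 3.99 for Hmox1.

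Over the 10 members and the 4 main classes there were 40 pairs of gene and class, of which 26 at day 1, 31 at day 3 and 24 at day 7 had the 20 UMIs in both sums together that a call required. By the rule of a 2-fold difference, 4 pairs were higher and 2 lower at day 1, 12 higher and 1 lower at day 3, and 1 higher and 4 lower at day 7. Each count is given below beside the share of all genes that met the same rule in the same class and day. Because the members were chosen with earlier results of these libraries in view, the shares give a scale only. The comparison is no test of the set. For Slc39a14 in oligodendrocyte-like nuclei at day 1 nothing is read from the count.

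Microglia-like nuclei had the largest share of members past the line at day 3, when 5 of 8 tested were higher and 0 lower, against 8.47% and 4.99% of all genes tested. The median log2 ratio of those members was 1.19 and that of all genes 0.09. At day 1, 1 of 6 was higher and 1 lower (6.23% and 4.7% of all genes), and at day 7, 0 of 5 were higher and 1 lower (5.63% and 4.59%). Slc39a14, Slc40a1 and Cp were tested at day 3 and did not pass the line, and Trf and Tfrc had too few UMIs to be tested, the latter with 12 in sham and 7 at day 3. Leaving out the border-marked nuclei, 40 of 191 at day 3 and 7 of 91 in sham, 4 of 8 were higher at day 3 (7.65% of all genes), namely Hmox1, Ftl1, Mt2 and Slc39a14, and the calls of Fth1 and Mt1 were lost at log2 ratios of 0.93 and 0.98. Leaving out the smaller cluster instead, 5 of 8 were still higher at day 3, but at day 1 the count rose to 2 higher and 2 lower of 6 (6.92% and 5.71%), with Fth1 higher and Cp lower in addition. In each of these selections day 3 had the most calls.

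Astrocyte-like nuclei had 3 of 8 members higher and 0 lower at day 3, where 3.3% and 3.71% of all genes were. Their median log2 ratio was 0.92, and that of all genes -0.02. At day 1, 1 of 5 was higher and 0 lower (2.95% and 6.35%), and at day 7 likewise 1 of 5 and 0 (3.32% and 6.23%), in both cases Slc39a14. In oligodendrocyte-like nuclei 1 of 6 was higher and 1 lower at day 1 (3.47% and 4.49%), 2 higher and 1 lower at day 3 (3.05% and 2.06%), and 0 higher and 2 lower at day 7 (2.23% and 4.76%). Neuronal nuclei had 1 of 9 higher and 0 lower at day 1 (3.26% and 1.26%), 2 of 9 and 0 at day 3 (1.66% and 1.56%), and 0 of 8 and 1 at day 7 (2.37% and 1.8%). In neuronal nuclei the median log2 ratio of the members was 0.06 at day 1, 0.03 at day 3 and -0.28 at day 7, beside 0.03, -0.06 and -0.06 over all genes.

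Free RNA gave few calls. Of 9 members tested, 0 were higher and 1 was lower at day 1 (3.45% and 1.68% of all genes), namely Slc40a1, whose call was lost in barcodes of 1 to 100 UMIs. Those barcodes instead put Hmox1 (2.16) and Mt2 (2.09) above and Ftl1 (0.484) below the line at day 1. At day 3, 1 was higher and 0 lower (2.83% and 1.92%), namely Hmox1, and at day 7, 0 were higher and 1 lower (3.45% and 1.41%), namely Ftl1. Mt1 and Mt2 fell short of 2-fold at day 1, at 1827 and 319 CPM against 977 and 161 CPM in sham, ratios of 1.87 (1.82 to 1.91) and 1.98 (1.87 to 2.1). For Mt1, day 1 was the highest library in free RNA, whereas in astrocyte-like nuclei it was day 3.

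The members split by how much of their RNA lay outside nuclei. The level in free RNA was 4.39 to 8.13 times the level in nuclei for Fth1 over the 4 libraries, 3.19 to 5.69 times for Ftl1, 5.6 to 10.8 times for Mt1, 4.21 to 8.83 times for Mt2 and 3.9 to 7.58 times for Hmox1. Slc39a14 had 0.827 to 1.14 times, Cp 0.866 to 1.04, Slc40a1 0.744 to 1.52 and Tfrc 1.18 to 1.38 times its nuclear level. For Mt1, 1.92% to 3.72% of all genes had a higher ratio, and for Slc39a14 48.9% to 62.3%. The 5 genes with high ratios are short, from 905 bases for Mt2 to 6969 for Hmox1, and the other 4 span 18456 to 52092 bases. The ratio was thus larger for the short genes, but Tfrc, a long one, also had a higher level in free RNA than in nuclei in all 4 libraries, with intervals above 1 in each.

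**Figure D4:**
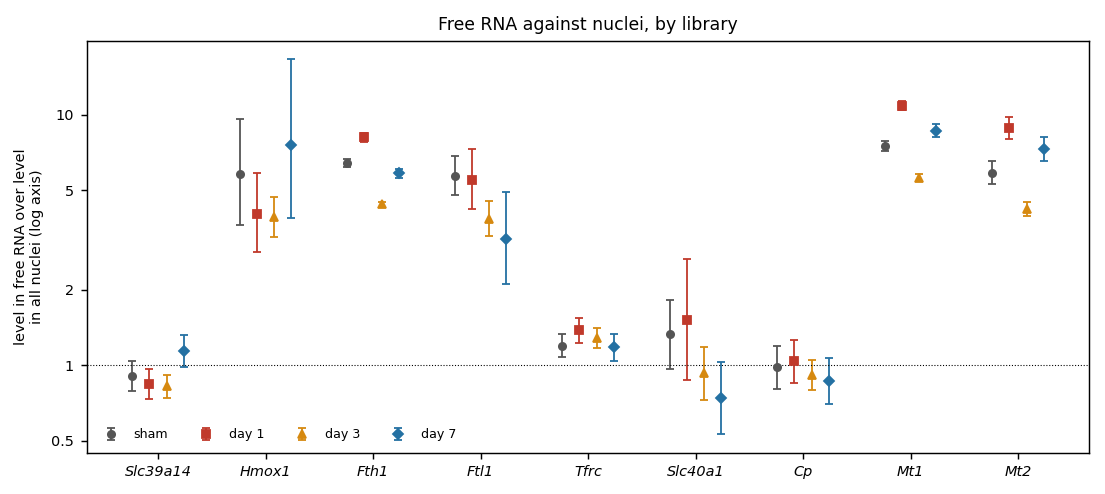
Level in free RNA divided by the level in all nuclei (log axis) for 9 members, Trf left out, in sham, day 1, day 3 and day 7 (marker shapes), with exact 95% bars for counting error. Fth1, Ftl1, Hmox1, Mt1 and Mt2 lie at 3.19 or above and the other 4 genes between 0.744 and 1.52.

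Likeness between genes was described by Pearson's r of log2(CPM + 1) over 32 points, the sums of 8 classes in 4 libraries, which share library and depth and are not independent. Endothelial cell-like, fibroblast-like and ependymal cell-like nuclei, with under 20 nuclei in some library, were not among the 8 classes, although Slc40a1 and Tfrc were highest in endothelial cell-like and Cp in fibroblast-like nuclei. Mt1 and Mt2 were each other's closest gene (r = 0.976), followed for Mt1 by Aldoc (0.973), an astrocyte glycolysis gene. Fth1 was closest to Rps14 (0.972), a ribosomal protein gene, and reached 0.92 with Mt1 and 0.677 with Ftl1. Slc40a1 was closest to Il10ra (0.886), an interleukin receptor chain, Srgap2 (0.876) and Gpr34 (0.874), a receptor found on microglia, and Ftl1 to Rpl36al (0.894), a ribosomal protein gene. The closest genes of the other members had lower values, namely Hmox1 with Etf1 (0.776), Tfrc with Drp2 (0.79), Cp with Rnf219 (0.8) and Slc39a14 with Bcl6 (0.702). Between members, Slc39a14 had an r of 0.305 with Mt1, and Hmox1 had 0.657 with Ftl1.

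A further 68 genes of iron, haem, zinc and copper handling, the listed ones found in the files, were read by the same rule. In microglia-like nuclei at day 3, 6 of 30 tested were higher and 0 lower, against 8.47% and 4.99% of all genes, with a median log2 ratio of 0.27 beside 0.09 over all genes. Haem handling accounted for 3 of the 6, out of 8 haem genes tested. The further genes were not read again without border-marked nuclei, and Cd163 is both a listed haem gene and a border macrophage marker. Bach1, a haem-sensing repressor of Hmox1, went from 44.7 to 104 CPM, a ratio of 2.32 (1.22 to 4.79), and Abcg2, a transporter whose substrates include porphyrins, from 41 to 82.6 CPM, 2.01 (1.01 to 4.36). At day 1 there were 0 of 19 past the line in either direction (6.23% higher and 4.7% lower of all genes). At day 7, 1 of 24 was higher (5.63% of all genes).

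In the other classes few of these genes passed 2-fold. Astrocyte-like nuclei had 2 of 31 lower at day 1 (6.35% of all genes), 3 of 38 higher at day 3 (3.3%), and 1 higher and 1 lower of 32 at day 7 (3.32% and 6.23%). Slc48a1, a haem transporter, was at 65.1 CPM in sham and 23.3 CPM at day 1, a ratio of 0.358 (0.154 to 0.743). Oligodendrocyte-like nuclei had 2 higher and 1 lower of 32 at day 1 (3.47% and 4.49%). They had 0 of 32 past the line at day 3 (3.05% and 2.06%) and 1 lower of 32 at day 7 (4.76%). Nfe2l2, the transcription factor that switches on Hmox1 and other antioxidant genes, went from 23.8 to 55.5 CPM at day 1 in oligodendrocyte-like nuclei, 2.33 (1.29 to 4.35), and from 2.66 to 6.35 CPM in neuronal nuclei, 2.38 (1.58 to 3.65). Nfe2l2 was higher at day 1 in both classes. Neuronal nuclei had 2 of 54 higher at day 1 (3.26%) and 0 of 55 past the line at day 3 (1.66% and 1.56%). At day 7, 1 of 54 was lower (1.8%), namely Cd163, a haemoglobin receptor of macrophages, at 1.59 against 3.46 CPM (0.461, 0.252 to 0.806). In free RNA 1 of 58 was higher at day 1 (3.45%), namely Tmprss6, an enzyme of iron regulation, at 4.9 against 2 CPM (2.45, 1.45 to 4.26), then 1 of 60 at day 3 (2.83%) and 0 of 58 at day 7 (3.45%).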

How the data were processed

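Single-nucleus libraries (10x Genomics 3' chemistry), 1 per group, were analysed from the UMI counts deposited by the authors, who per their methods mapped reads with STARsolo (STAR 2.7.3a per the submitters' processing notes) to GRCm38, counted exonic and intronic reads against GENCODE vM8, collapsed UMIs and removed those of several genes. The counts are raw and unfiltered. The members and lists were chosen with earlier results of these data known.

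An emptyDrops test, re-implemented, called the nuclei of each library (barcodes over 1000 UMIs, 10000 draws, false discovery rate under 0.001) and doublets removed at 0.8% per 1000 nuclei (scanpy 1.11.5), which took 144 of 7900. Clustering used Seurat 5.3.0 with sctransform 0.4.2 in R 4.3.3 (30 principal components, resolution 0.8, 31 clusters), without the members. Clusters were named from marker lists by a rule revised after the clusters were seen, and 2 neuronal clusters stayed unnamed. UMIs were summed by class and library with Python 3.11.15, numpy 2.4.6 and scipy 1.17.1. Ratios carry exact conditional binomial intervals, shares exact Clopper-Pearson intervals. A call needed a ratio of at least 2 or at most 0.5 and 20 UMIs in both sums, with sums under 3 set to 3. Expected free RNA per nucleus was the median empty droplet (307 to 433 UMIs), while glial markers in neuronal nuclei gave a share of 10.49% to 12.16%. The steps were tested on simulated data. Alternatives included edgeR 4.0.16 TMM and DESeq2 1.42.0 size factors. The named members of the further list were those past 2-fold with 50 UMIs, at most 3 per class, day and direction. Of 70 listed genes, 2 were not matched by symbol. Of the 10 members, 6 were matched in the promoter table, and Slc39a14, Hmox1, Trf and Slc40a1 are named only. Depth per library and the intervals cover counting error only.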

Additional observations from a re-analysis of the deposited data

How the results depend on the processing

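No paired analysis was possible because each group holds 1 library and the groups share only replicate number 1. Over 78 ratios and their alternatives, 822 of 876 values stayed within counting error of the reported one, 54 moved beyond it and 0 reversed a 2-fold call. Thinning accounted for 25 of the 54, out of the 71 values it gave, whereas TMM, size factors, keeping doublets and leaving out the top nucleus moved 0 of 78 each. A further 20 gave no value, since 3 or fewer UMIs were left in both sums, among them 6 that had passed 2-fold. Those 6 were Hmox1 at day 3 in astrocyte-like and at day 1 and day 3 in neuronal nuclei on thinning, and, with ambient RNA subtracted in proportion, neuronal Hmox1 and Mt2 at day 3 and Ftl1 at day 7. Against 4 higher and 2 lower pairs at day 1, 12 and 1 at day 3 and 1 and 4 at day 7, thinning every nucleus to 1000 UMIs gave 2 higher and 0 lower at day 1, 6 and 0 at day 3 and 2 and 0 at day 7, with fewer pairs reaching 20 UMIs. Nuclei above 2000 UMIs, and a mean of CPM over nuclei, gave 0 higher at day 7, and the mean also 0 lower at day 3. Subtracting ambient RNA in proportion to depth gave 4 lower at day 1 and 2 at day 7. Taking the same number of free UMIs from each nucleus, keeping doublets, and merging without integration each gave 2 lower at day 3. Without a minimum count there were 4 lower at day 1, 2 lower at day 3 and 2 higher at day 7, and with a minimum of 50 UMIs 2 higher and 0 lower at day 1, 0 lower at day 3 and 1 lower at day 7. In free RNA at day 1, barcodes of 1 to 100 UMIs gave 3 members past 2-fold and those with more, up to 500 UMIs, gave 2, against 1. Leaving out border-marked or smaller-cluster microglia-like nuclei was chosen after seeing the data and kept the counts over the 4 main classes within 1.5 times. In microglia-like nuclei alone, leaving out the smaller cluster took the day 1 count from 1 higher and 1 lower to 2 and 2. TMM and size factors moved log2 ratios by at most 0.09.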
